A study of Mus musculus with 24 samples.

Results

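The comparison set luminal against basal mammary epithelial cells sorted from mutant mice: luminal Sca1-negative GFP-positive cells (mutant luminal cells) minus basal GFP-positive cells (mutant basal cells). It rests on 6 of the 24 arrays of the series, 3 per group, chosen by their sample labels. The mutant mice were Lgr5-creERT2/PIK3CA H1047R animals of a mixed FVB/C57BL6 background, in which tamoxifen activates a Cre recombinase made under Lgr5 control and thereby the mutant PIK3CA transgene. Both groups came 4 weeks after tamoxifen from glands that the labels call preneoplastic, a term they also give the control glands. Each sorting pooled the glands of 2 to 3 estrus-synchronised mice per genotype, and there were 3 sortings. CD45-negative cells were split into luminal cells (CD24 high) and basal cells (CD24 low), both without Sca1, and GFP is described as a mark of Lgr5 expression, of transgene expression or of both. The luminal and basal GFP-positive cells are each labelled as H1047R-expressing. Each hybridised sample was amplified from the RNA of 250 sorted cells. The control mice used further on carried Lgr5-creERT2 without the transgene and also received tamoxifen. Their luminal Sca1-negative cells were GFP-negative and their basal cells GFP-positive. The age of the mice and the promoter of the transgene are not given in the sources used here.

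The mammary epithelium is a bilayer. Luminal cells line the lumen and make milk, and basal cells, most of them contractile myoepithelial cells, lie on the basement membrane and squeeze milk out under oxytocin. Luminal cells without Sca1 are enriched for progenitors of the milk-producing alveoli, while the Sca1-positive luminal cells hold most of the hormone-sensing cells. PIK3CA encodes the catalytic subunit of phosphoinositide 3-kinase, and the H1047R change makes the kinase constitutively active.

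The values are log2 expression levels, read for 19937 genes with a probe set of 1 gene symbol. A gene was called where limma's moderated test gave an adjusted p under 0.05 over all these genes. Errors of differences are standard errors of that fit, and differences are mutant luminal minus mutant basal on the log2 scale. A group mean at or under 4.6, the median of all values, is termed dim below, and the size of a difference that rests on a dim mean is not exact. Arrays within a group correlated at 0.974 to 0.979 across genes and arrays of different groups at 0.915 to 0.931. Each p-value sets a difference against the spread of arrays within groups, estimated over all 8 groups, and against nothing wider. Variation among pools of mice was not separated from that of sorting and amplification.

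The labels were first set against marker genes. The mean level of 8 basal markers (Krt5, Krt14, Krt17, Acta2, Myh11, Cnn1, Trp63 and Oxtr) was 6.55, 6.63 and 7.20 in the mutant luminal arrays, against 10.70, 10.68 and 10.82 in the mutant basal arrays. That of 7 luminal markers (Krt8, Krt18, Krt19, Epcam, Cldn3, Cldn7 and Cd24a) was 11.35, 11.43 and 11.36, against 9.0, 9.35 and 8.11 in basal arrays. Cd24a, which encodes the CD24 of the gates, read 11.35, 11.31 and 11.57 in luminal arrays, against 11.09, 11.06 and 10.83 in basal arrays. Its difference of 0.42 ± 0.21 was not called (adjusted p = 0.328 by limma), nor was it under any of 16 settings. Neither marker mean overlapped between the groups, and each was high in the group named for it. In the luminal arrays the basal markers nevertheless stood above those of control luminal cells, which were at 5.36, 5.16 and 5.20. In bulk samples a different number of cells of a type and a different amount of RNA per cell cannot be told apart. The part of this residual basal signal of the luminal arrays in the results below was not tested.

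Of the 6 measured progenitor markers (Elf5, Kit, Aldh1a3, Cd14, Csn3 and Ltf) the mean was 9.91 ± 0.18 in luminal arrays and 6.89 ± 0.08 in basal arrays (SD, n = 3 each). Control luminal cells had 9.69 ± 0.27 and control basal cells 4.92 ± 0.33. Hormone-sensing markers (Esr1, Pgr, Foxa1 and Prom1) stood at 5.67 ± 0.65 in mutant luminal cells and 4.77 ± 0.07 in mutant basal cells, below the 8.06 ± 0.59 of mutant Sca1-positive luminal cells. Ly6a, which encodes Sca1, and Prlr, the prolactin receptor, are not analysed here. Ptprc, which encodes the CD45 used to deplete leukocytes, was dim throughout, at 4.06 ± 0.08 and 4.14 ± 0.04. The mean of 17 leukocyte markers was 4.17 to 4.24 in luminal arrays, against 4.04 to 4.10 in basal arrays, and 12 endothelial markers lay at 4.09 to 4.25, against 4.00 to 4.07. One leukocyte marker was called: Cd68, a lysosomal protein of macrophages, stood at 8.23, 8.48 and 8.11 in luminal arrays, against 6.45, 7.11 and 6.77 in basal arrays (1.5 ± 0.34, adjusted p = 0.00769 by limma).

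In total 722 genes (3.62% of those tested) were higher and 845 (4.24%) lower in mutant luminal cells. A 2-fold or larger difference was reached by 490 of the higher (2.46%) and 614 of the lower genes (3.08%). The median difference of all genes was 0.03. Differences of 3 or more were reached by 60 higher and 105 lower genes. The 3 luminal arrays all lay above the 3 basal arrays in 714 of the higher calls, and in 15.7% of all genes. They all lay below in 832 of the lower calls, and in 11.2% of all genes. The basal mean was dim in 207 of the higher calls and the luminal mean in 264 of the lower ones. Dim means are not marked at every gene named below. Btn1a1 in basal cells and Cdh2, Dsg3 and Ccne1 in luminal cells are among those left unmarked there.

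The largest difference upward was Amtn, which encodes amelotin, a protein known from tooth enamel. It read 10.08, 10.18 and 10.60 in luminal arrays, against 4.36, 4.47 and 3.70 in basal arrays, a difference of 6.11 ± 0.30 (adjusted p = 2.41e-10). It was followed by the haemoglobin scavenger Hp at 10.89, 10.87 and 11.01, against 4.87, 6.01 and 4.91. Its difference was 5.66 ± 0.47, and that of Ltf, the iron-binding milk protein lactoferrin, was 5.01 ± 0.50. In these 3 genes the luminal arrays were less spread than the basal ones. Next in size were Krt19 (4.89), the nucleoside transporter Slc28a3 (4.82), Tnfaip2 (4.57), the granulocyte growth factor Csf3 (4.56), the bile salt-activated lipase Cel (4.42), Clic6 (4.37), Aldh1a3 (4.32), Pkp2 (4.29) and the cytokine Tnf (4.29). The basal means of Amtn, Cel, Clic6 and Pkp2 were dim.

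The largest differences downward were in contractile and matrix genes. Myl9, the regulatory light chain of smooth muscle myosin, read 7.06, 5.15 and 6.29 in luminal arrays, against 11.86, 11.76 and 12.08 in basal arrays (-5.73 ± 0.62, adjusted p = 3.89e-06). Antxr1, a collagen-binding membrane protein, followed at -5.57, with a dim luminal mean of 4.5. Then came Cnn1 (-5.48), Myh11 (-5.30), the matricellular protein Postn (-5.23) and the BMP and Wnt antagonist Sostdc1 (-5.05). Vcan (-4.95), Emb (-4.84), Bgn (-4.73), the hyaluronan synthase Has2 (-4.73), the P-cadherin gene Cdh3 (-4.58) and Fmod (-4.58) completed the 12 largest. The 12 were taken from called genes whose groups did not overlap, so their being apart was a condition of the choice. In Myl9 the luminal arrays were the more spread, with replicate 2 lowest. Of the 12 only Sostdc1 lost its call under a setting: against basal GFP-negative cells, where 1105 genes (5.54%) were higher and 911 (4.57%) lower, it stood at -2.30 and was not called (adjusted p = 0.0606, the highest of 16 settings, the lowest being 3.14e-06).

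**Figure D1:**
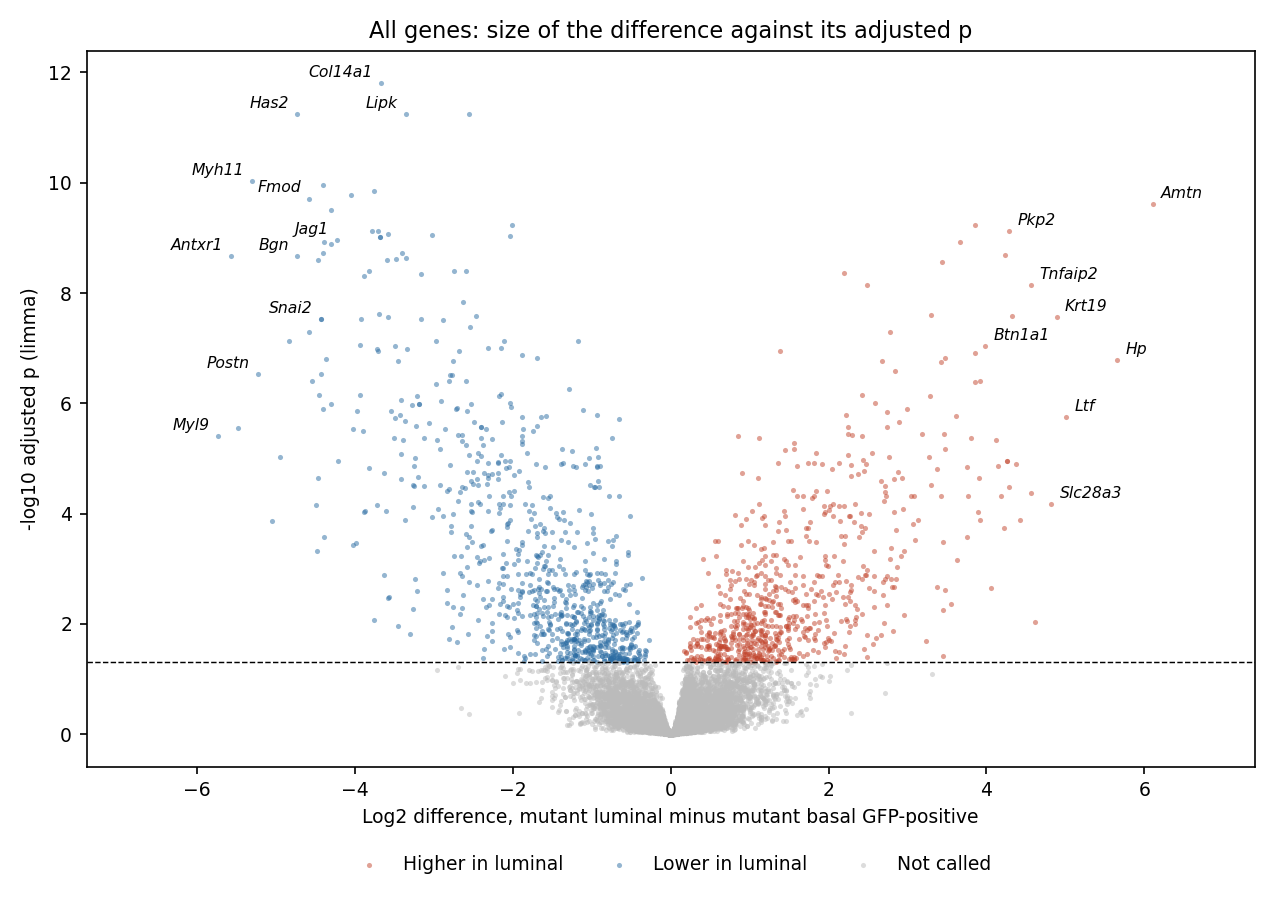
Each point is 1 of 19937 genes, with its log2 difference, mutant luminal minus mutant basal GFP-positive, on the x axis and -log10 of limma's adjusted p on the y axis; the dashed line is an adjusted p of 0.05. The 722 higher genes reach 6.11 (Amtn) and the 845 lower genes -5.73 (Myl9).

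Keratins, the intermediate filaments of epithelia, divide the layers. Of 7 measured keratins typical of basal and stratified epithelium 4 were lower in mutant luminal cells and 0 higher, with a median difference of -2.42 over the list, against 0.03 over all genes. For this and each further list, the shares of all genes were 3.62% higher and 4.24% lower. Krt5 read 8.63, 7.92 and 8.94 in luminal arrays, against 11.93, 11.84 and 11.99 in basal arrays (-3.42 ± 0.43, adjusted p = 2.34e-05). Krt14, its partner in the filament, read 8.69, 9.0 and 9.18, against 11.36, 11.49 and 11.28 (-2.42 ± 0.42, adjusted p = 0.000718). Both keratins were thus well below their basal levels in every luminal array, and still far above dim levels. Krt17 differed by -3.23 and Krt15 by -3.58. Against basal GFP-negative cells Krt15 stood at -1.34 and was not called (adjusted p = 0.335, the highest of 16 settings, the lowest being 0.00107).

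The promoter of Krt5 is shown because Krt5 and Trp63, which encodes the p53-family factor p63 of basal epithelia, were both lower. The 250 bases before its start on the minus strand of chr15:101712906-101713155 (RefSeq, GRCm38.p6) hold a decamer motif of the p53 family, in capitals, at positions -95 to -86 from the start. It was searched by that name on both strands, and 7.4% of the 15613 tested genes with such a window hold one.
Krt5: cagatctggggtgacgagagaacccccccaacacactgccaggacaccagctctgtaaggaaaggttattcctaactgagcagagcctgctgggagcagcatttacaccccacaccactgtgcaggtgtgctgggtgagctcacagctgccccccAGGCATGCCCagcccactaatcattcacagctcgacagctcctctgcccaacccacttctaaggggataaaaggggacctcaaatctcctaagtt
The share was 6.86% among 539 higher and 9.94% among 644 lower genes with a window, and the window of Krt14 holds none. These matches are letters in a window and say nothing of binding.

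Of 6 keratins of simple epithelium 4 were higher and 1 lower, with a median of 1.93. Krt18 read 12.55, 12.64 and 12.58 in luminal arrays, against 10.38, 11 and 9.16 in basal arrays (2.41 ± 0.34, adjusted p = 9.77e-05). Its partner Krt8 was higher by 1.45 ± 0.21, Krt7 by 4.18 and Krt19 by 4.89. Basal replicate 3 was the lowest array for each of these 4 keratins, and Krt8 and Krt18 stayed above 9 in every basal array. Krt23, listed with the simple keratins, went the other way, at 4.70, 4.52 and 4.67 in luminal arrays, against 9.39, 8.57 and 9.05 in basal arrays (-4.37 ± 0.36, adjusted p = 1.6e-07).

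Of 21 measured genes of the contractile apparatus 15 were lower and 0 higher, with a median of -1.93. Acta2, the smooth muscle actin that marks myoepithelium, read 7.5, 6.96 and 8.34 in luminal arrays, against 12.08, 12.01 and 12.22 in basal arrays (-4.50 ± 0.62, adjusted p = 7.06e-05). The smooth muscle myosin Myh11 read 5.23, 5.63 and 5.85, against 10.77, 10.69 and 11.13 (-5.30 ± 0.24, adjusted p = 9.48e-11). Luminal replicate 3 was the highest luminal array for 7 of the 8 basal markers, Krt17 being the exception, and Myl9 was highest in replicate 1. Actg2 (-4.39), Tagln (-3.82) and Oxtr, the oxytocin receptor (-3.94), were lower as well. A CArG box, the motif of serum response factor, was searched by that name in the same upstream windows of Acta2, Cnn1 and Mylk and was found in none. It is in 1.45% of the windows of tested genes.

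Of 14 measured transcription factors and other regulators of the basal layer 6 were lower and 0 higher, with a median of -0.50. Trp63 read 5.97, 6.52 and 6.91, against 9.46, 9.80 and 9.89 (-3.25 ± 0.39, adjusted p = 1.36e-05). Snai2, which encodes the repressor Slug, read 5.73, 4.86 and 6.55, against 9.96, 10.32 and 10.16 (-4.43 ± 0.33, adjusted p = 3.01e-08). All 6 values of both genes separated by group. The helix-loop-helix factor Id4 (-2.19) was lower too. Sox9, which both layers express, differed by -0.98 ± 0.15 but stood at 9.26, 9.11 and 9.57 in luminal arrays, against 10.30, 10.43 and 10.14. Against basal GFP-negative cells its difference was 0.37 and not called (adjusted p = 0.152, the highest of 16 settings).

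**Figure D2:**
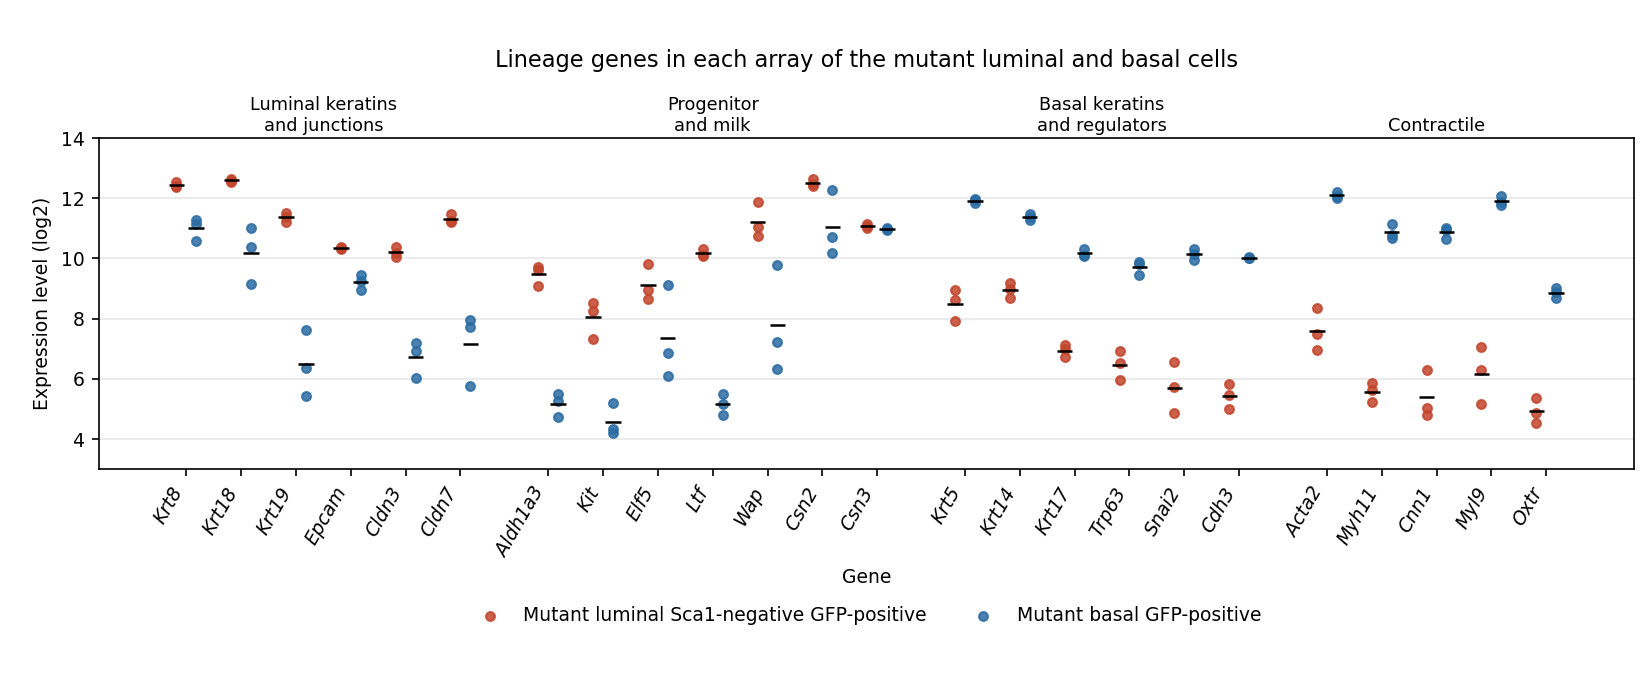
Log2 expression levels of 24 lineage genes in each of the 3 mutant luminal (left of each pair) and 3 mutant basal GFP-positive arrays (right), with a line at each group mean. Krt5 lies at 7.92 to 8.94 against 11.84 to 11.99, and Csn3 at 11 to 11.14 against 10.93 to 11.01.

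Of 24 luminal regulators 6 were higher and 2 lower, with a median of 0.39. Elf5, the ETS factor that drives alveolar differentiation, read 9.80, 8.64 and 8.94 in luminal arrays, against 6.85, 6.11 and 9.12 in basal arrays. Basal replicate 3 lay inside the luminal range, and the difference of 1.77 ± 0.77 was not called (adjusted p = 0.223). It was called without that array (adjusted p = 0.0429) and against basal GFP-negative cells (0.000977), within a range of 0.000977 to 0.616 over 16 settings. Ehf, a related epithelial factor, read 11.06, 10.73 and 10.93, against 10.26, 9.90 and 9.82. Its groups did not overlap, yet the difference of 0.92 ± 0.30 was not called (adjusted p = 0.0726). Ehf was called under 6 of 16 settings, array weights (adjusted p = 0.021) and a fit of the 6 arrays alone (0.0204) among them, with a range of 8.56e-09 to 0.225.

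Gata3, a factor needed for luminal fate, overlapped between the groups at 9.50, 8.01 and 9.12, against 9.06, 10.02 and 8.97 (-0.47 ± 0.39, adjusted p = 0.656). The pioneer factor Foxa1 was higher, at 6.70, 7.60 and 8.53, against 4.44, 5.04 and 4.97 (2.79 ± 0.46, adjusted p = 0.000422). The ETS factor Elf3 was higher by 2.80 ± 0.54 and Ovol2, a repressor of mesenchymal genes, by 0.56 ± 0.09. Runx1 differed by -1.01 (adjusted p = 0.0107) and lost its call without luminal replicate 1 or basal replicate 2 (adjusted p up to 0.0685 and down to 0.00202 over the settings). Esr1 (0.15) and Pgr (0.07), the oestrogen and progesterone receptors, were not called, and Pgr overlapped at 4.58, 5.28 and 6.89, against 6.24, 4.95 and 5.35. Of 12 hormone-sensing genes 2 were higher (16.7%) and 1 lower (8.33%), against 3.62% and 4.24% of all genes. Cited1 was higher, at 9.55, 7.81 and 9.80, against 6.08, 6.50 and 8.37 (2.07 ± 0.51, adjusted p = 0.0149 by limma). Its groups overlapped, and it was called under 10 of 16 settings. Sec14l2 (1.47, called under 12) was the other higher gene, and Wnt5a (-1.62) the lower one.

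Progenitor and milk genes gave a divided picture. Of 15 progenitor markers 5 were higher and 0 lower, with a median of 0.66. Aldh1a3, the aldehyde dehydrogenase used to sort luminal progenitors, read 9.63, 9.73 and 9.08 in luminal arrays, against 5.27, 5.50 and 4.72 in basal arrays (4.32 ± 0.31, adjusted p = 2.62e-08). The receptor Kit read 8.51, 7.34 and 8.27, against 5.20, 4.34 and 4.20 (3.46 ± 0.37, adjusted p = 3.57e-06). Both were clearly apart, and so were the complement regulator Cd55 (2.83) and the cytokine Lif (2.58). Itgb3, a progenitor integrin, read 6.70, 6.15 and 6.15, against 5.66, 5.77 and 5.58, and was not called (0.66 ± 0.26, adjusted p = 0.162; range 0.0428 to 0.464, called with array weights). Slpi, a secreted protease inhibitor, overlapped at 11.15, 11.82 and 11.68, against 11.50, 12.16 and 11.28.

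Of 11 milk protein genes 4 were higher and 0 lower, with a median of 1.92. Csn2, beta-casein, read 12.65, 12.46 and 12.40 in luminal arrays, against 12.28, 10.17 and 10.70 in basal arrays. The basal arrays lay below every luminal array, replicate 1 only just, and the difference of 1.45 ± 0.62 was not called (adjusted p = 0.208). Against basal GFP-negative cells, whose mean was 6.51, the difference was 5.99 and called (adjusted p = 2.58e-06; range 2.58e-06 to 0.566). Csn1s1, alpha-casein, read 11.91, 11.57 and 11.60, against 10.87, 9.21 and 9.23 (1.92 ± 0.66, adjusted p = 0.0936). Csn3, the kappa-casein that coats the micelle, read 11.07, 11 and 11.14, against 10.99, 10.93 and 11.01 (0.09 ± 0.51, adjusted p = 0.966). Wfdc18, of the whey acidic protein family, stood at 12.72, 12.73 and 12.73, against 12.04, 12.08 and 11.26 (0.93 ± 0.79, adjusted p = 0.665). Csn1s1 was higher by 4.01 (adjusted p = 0.000377) and Wfdc18 by 2.55 (adjusted p = 0.0493) when set against basal GFP-negative cells. A p that misses the threshold does not show equal levels, and the standard errors here are those of all 8 groups.

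The upstream windows of the 2 caseins are shown because prolactin acts on casein genes through STAT5, which binds the GAS motif TTCNNNGAA. Both windows lie on mouse chromosome 5, at chr5:87699426-87699675 on the minus strand for Csn2 and at chr5:87665958-87666207 on the plus strand for Csn1s1 (RefSeq, GRCm38.p6). Capitals mark the motif, at positions -93 to -85 from the start of Csn2 and -100 to -92 from that of Csn1s1.
Csn2: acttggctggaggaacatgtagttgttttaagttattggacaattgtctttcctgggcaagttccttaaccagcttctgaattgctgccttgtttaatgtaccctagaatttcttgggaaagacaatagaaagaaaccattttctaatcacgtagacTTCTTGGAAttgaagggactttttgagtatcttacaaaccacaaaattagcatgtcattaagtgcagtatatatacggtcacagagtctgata
Csn1s1: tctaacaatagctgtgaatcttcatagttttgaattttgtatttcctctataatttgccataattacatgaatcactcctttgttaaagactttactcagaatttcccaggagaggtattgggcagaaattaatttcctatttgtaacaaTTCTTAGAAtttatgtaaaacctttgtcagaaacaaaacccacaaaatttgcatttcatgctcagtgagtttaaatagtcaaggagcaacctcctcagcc
Of the tested genes with a window 7.71% hold the motif on either strand, with 7.42% of the higher and 7.76% of the lower calls. The windows of Wap and Wfdc18 hold none.

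Other milk proteins did separate the layers. Ltf read 10.11, 10.32 and 10.07 in luminal arrays, against 5.16, 5.51 and 4.80 in basal arrays (adjusted p = 1.78e-06). Wap, whey acidic protein, read 11.88, 11.03 and 10.75, against 9.79, 7.22 and 6.32 (3.45 ± 0.99, adjusted p = 0.0385). Its basal arrays were spread over more than 3 log2 units, and 8 of 16 settings ended its call, with adjusted p from 0.000207 to 0.199. The amino acid oxidase Lao1 was higher by 2.73 ± 0.37 and the mucin Muc15 by 2.22 ± 0.51, the last not called without luminal replicate 1 (adjusted p = 0.057, the highest over the settings). Within the prolactin-type signalling list of 16 genes Stat6 (0.68, adjusted p = 0.0254) was higher, a call that 8 of 16 settings ended, with adjusted p from 0.00837 to 0.548. Socs3, a feedback inhibitor of this signalling (-1.94), and the receptor Lifr (-2.67) were lower.

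Genes of milk secretion were higher in part. Of 17 genes of milk fat globules and lipid secretion 5 were higher and 0 lower. Btn1a1, butyrophilin of the globule membrane, read 8.84, 8.70 and 8.10, against 4.91, 4.36 and 4.43 (3.98 ± 0.32, adjusted p = 9.3e-08), and the mucin Muc1 was higher by 2.94 ± 0.41. The lipid droplet protein Plin2 was higher by 1.99 (adjusted p = 0.0182), a call lost under 5 of 16 settings (adjusted p 0.000138 to 0.0952). Of 19 genes for ion, zinc and water transport 8 were higher and 0 lower, among them the potassium channel Kcnn4 (3.43), the sodium channel subunit Scnn1b (2.87) and the calcium pump Atp2c2 (1.18), the last with a dim basal mean. Slc28a3 read 10.38, 10.04 and 9.96, against 6.54, 4.96 and 4.43. Among 21 amino acid transporters 3 were higher, led by the glutamate transporter Slc1a1 (3.92), and 2 lower, led by the taurine transporter Slc6a6 (-2.38). No gene of fatty acid synthesis was lower and 2 of 19 were higher, Me1 (2.85) and the desaturase Scd1 (2.67, adjusted p = 0.0161). The Scd1 call ended without basal replicate 3 and without luminal replicates 1 or 2, with adjusted p from 0.00127 to 0.0903 over the settings.

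Cell junctions changed in type. Of 23 genes of adherens and tight junctions 13 were higher and 2 lower, with a median of 1.12. The tight junction protein Cldn7 read 11.24, 11.46 and 11.22 in luminal arrays, against 7.72, 7.97 and 5.77 in basal arrays (4.15 ± 0.50, adjusted p = 1.35e-05). Cldn3 was higher by 3.48 ± 0.29, cingulin (Cgn) by 2.25 ± 0.23 and the adhesion molecule Epcam by 1.12 ± 0.12. The classical cadherins went opposite ways. Cdh1, E-cadherin, read 10.89, 10.90 and 11.20, against 9.84, 10.11 and 9.85 (1.06 ± 0.17, adjusted p = 0.000365). Cdh3, P-cadherin, read 5.47, 5.0 and 5.82, against 10.04, 10 and 10 (-4.58 ± 0.35, adjusted p = 5.13e-08). Desmosomes, the spot junctions that anchor keratins, were lower in 6 of 13 genes and higher in 1. Dsp, desmoplakin, differed by -1.70, Dsg3 by -2.38 (0.50 against basal GFP-negative cells) and Pkp4 by -1.37, while the plakophilin Pkp2 read 8.35, 9.16 and 8.83, against 4.58, 4.4 and 4.50 (4.29 ± 0.23, adjusted p = 7.63e-10). The median of the desmosome list was -0.03.

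Of 24 collagens 15 were lower and 2 higher, with a median of -1.20. Col17a1, the collagen of hemidesmosomes, read 5.78, 5.87 and 5.87 in luminal arrays, against 9.61, 9.33 and 9.85 in basal arrays (-3.76 ± 0.18, adjusted p = 1.41e-10). Col14a1 read 4.47, 4.6 and 4.43, against 7.99, 8.05 and 8.47 (-3.67 ± 0.12, adjusted p = 1.57e-12). The groups lay far apart in both, and the luminal mean of Col14a1 was dim. Col12a1 (-3.17) and the basement membrane chain Col4a5 (-2.04) were lower as well. Against basal GFP-negative cells Col4a5 stood at -0.25 and was not called (adjusted p = 0.217, the highest of 16 settings, the lowest being 8.8e-11).

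Of 27 integrins, laminins and their basement membrane partners 12 were lower and 1 higher, with a median of -0.69. The laminin chains Lama3 (-3.59), Lamb1 (-3.40) and Lama1 (-3.02) and perlecan (Hspg2, -2.97) had the smallest p. Itga6, the laminin receptor used to enrich basal cells, read 9.56, 9.36 and 9.70, against 10.85, 10.69 and 10.81 (-1.24 ± 0.24, adjusted p = 0.00209). Itgb1 differed by -0.50 (adjusted p = 0.0229), a call that ended under 4 of 16 settings (adjusted p 0.0101 to 0.116). Of 18 matricellular and matrix proteins 9 were lower and 0 higher. Sparc, a collagen-binding glycoprotein, read 8.67, 8.36 and 9.19, against 12.37, 12.29 and 12.40 (-3.61 ± 0.51, adjusted p = 9.19e-05), so it was bright in both layers. Postn read 5.0, 5.10 and 6.13, against 10.70, 10.46 and 10.78, and Bgn and the growth factor Ccn2 (-2.88) were lower too. Dcn, decorin, read 6.96, 7.05 and 6.13, against 10.84, 11.22 and 11.25 (-4.39 ± 0.69, adjusted p = 0.000265).

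Dcn and Col1a2 (-1.20) were also the 2 lower genes among 12 fibroblast markers, whose mean was 4.21 to 4.44 in luminal arrays, against 4.71 to 4.87 in basal arrays; the median of that list was -0.04. Col1a2 was not called against basal GFP-negative cells (adjusted p = 0.845, the highest of 16 settings). Whether fibroblast RNA took part in these 2 differences was not tested. Of 23 metalloproteinases and inhibitors 5 were lower, among them Mmp2 (-4.47), Timp3 (-3.19) and Adamts9 (-2.78), and 1 was higher. Of 16 genes tied to mesenchymal transition 6 were lower and 0 higher. Vim, vimentin, read 8.12, 7.84 and 8.51, against 10.58, 10.57 and 10.57 (-2.42 ± 0.33, adjusted p = 6.86e-05), and Cdh2, N-cadherin, differed by -1.99. The count for that list includes Snai2 and Mmp2, named above.

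**Figure D3:**
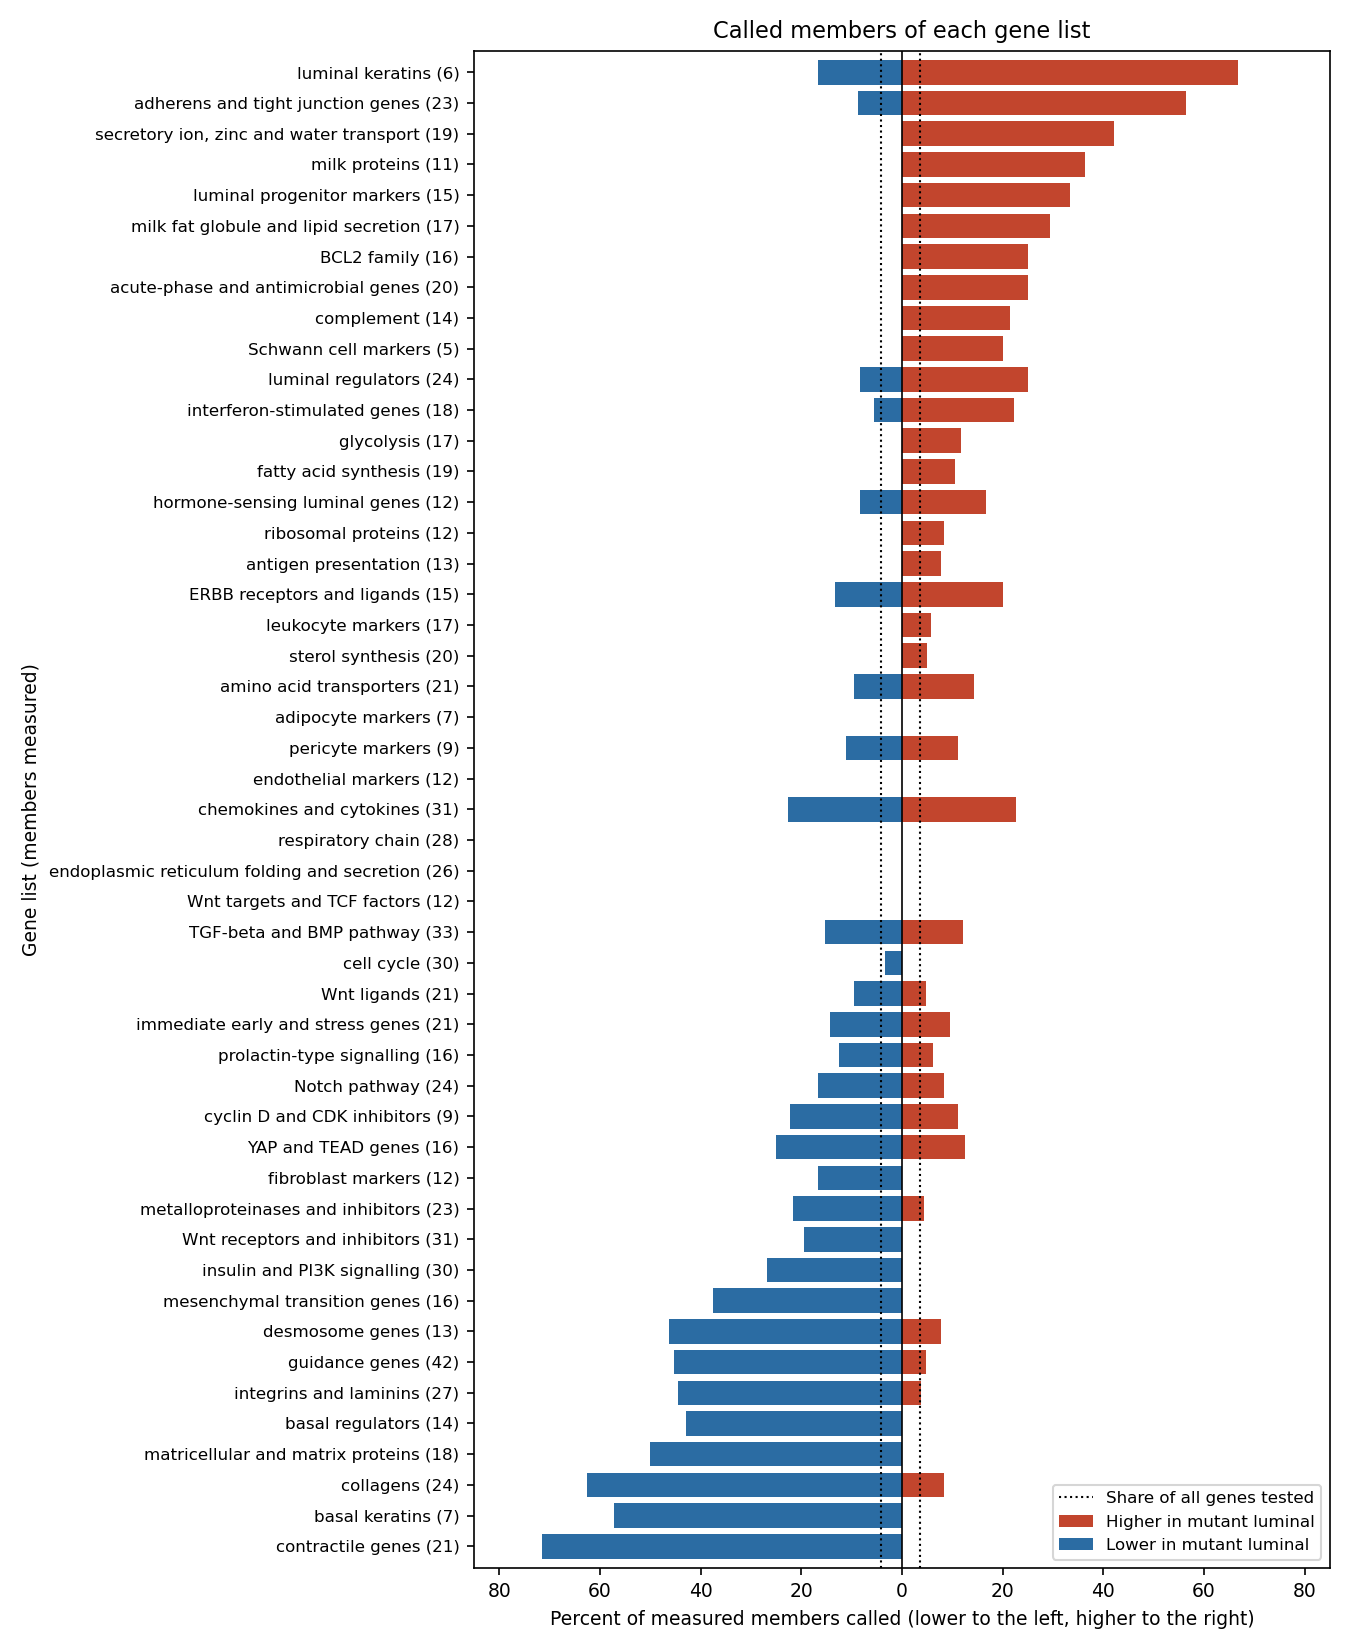
For each gene list of 5 or more measured members, bars give the percent of members called higher (to the right) and lower (to the left) in mutant luminal against mutant basal GFP-positive cells. The dotted lines mark 3.62% and 4.24%, the shares of all 19937 genes; 71.4% of contractile genes were lower and 66.7% of luminal keratins higher.

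Signalling genes were called in both directions. In the Notch pathway, where basal ligands signal to luminal receptors, 3 ligands were lower among 4 lower and 2 higher of 24 genes. Jag1 read 5.47, 5.26 and 5.98 in luminal arrays, against 9.82, 9.90 and 9.68 in basal arrays (-4.23 ± 0.24, adjusted p = 1.1e-09). Dll1 (-3.35) and Jag2 (-2.30) were lower as well. Of the receptors Notch3 was higher, at 6.06, 5.71 and 5.87, against 5.28, 5.24 and 5.25 (0.63 ± 0.13, adjusted p = 0.00278), and Notch1 overlapped at 7.64, 8.06 and 7.73, against 8.34, 8.37 and 7.99 (-0.42 ± 0.28, adjusted p = 0.541). Against basal GFP-negative cells Notch1 was higher by 1.72 (adjusted p = 0.000425, the only call in 16 settings).

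Among 31 Wnt receptors and inhibitors 6 were lower and 0 higher, with a median of -0.56: the frizzled receptors Fzd7 (-2.40) and Fzd3 (-2.16), the R-spondin receptor Lgr4 (-2.58) and the secreted inhibitor Sfrp1 (-2.83) had the smallest p. Lgr5 itself read 4.75, 5.17 and 5.25 in luminal arrays, against 7.29, 6.08 and 5.53 in basal arrays. All luminal arrays lay below the basal ones, which were spread, and the difference of -1.24 ± 0.39 was not called (adjusted p = 0.0653). It was called with array weights (adjusted p = 0.0204), with dim genes left out (0.0345) and without basal replicate 3 (0.0199). Against basal GFP-negative cells the difference was -2.28 and called (adjusted p = 0.000649; range 0.000649 to 0.352). The mean Lgr5 level was thus higher in the GFP-negative than in the GFP-positive mutant basal cells. Of 21 Wnt ligands Wnt5b (1.46) was higher and Wnt5a (-1.62) and Wnt11 (-0.62, adjusted p = 0.0139) lower. That is 4.76% higher and 9.52% lower, against 3.62% and 4.24% of all genes. The Wnt11 call ended under 5 of 16 settings (adjusted p 0.00364 to 0.214). None of 12 Wnt targets and TCF factors was called by limma, and 4 had an unadjusted p under 0.05.

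The ERBB receptors and their ligands, growth factor signals between the layers, differed by member. Erbb3, a receptor of neuregulin, read 8.37, 8.09 and 8.30 in luminal arrays, against 4.66, 4.63 and 4.49 in basal arrays (3.66 ± 0.21, adjusted p = 1.17e-09). Its ligand Nrg1 read 7.76, 7.08 and 8.72, against 10.11, 10.69 and 10.56 (-2.60 ± 0.40, adjusted p = 0.000235). Receptor and ligand were thus high in opposite layers, though Nrg1 stood at 0.65 against basal GFP-negative cells and was not called there (adjusted p = 0.432, the highest of 16 settings). Erbb2 was higher by 1.46 (adjusted p = 0.011), not called without basal replicate 1 or luminal replicate 2 (up to 0.0563, and down to 0.00227 over the settings), and the ligand Hbegf by 2.42. Egfr overlapped at 8.48, 8.98 and 8.67, against 8.73, 8.79 and 8.37 (0.08).

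The mouse Pik3ca probe set did not separate the layers, at 7.83, 8.02 and 7.86 in luminal arrays, against 7.94, 7.84 and 8.42 in basal arrays (-0.16 ± 0.21, adjusted p = 0.813). The labels do not say whether this probe set also reads the transgene. Of 30 genes of insulin and PI3K signalling 8 were lower and 0 higher. Igfbp2, which binds insulin-like growth factors, read 6.0, 5.52 and 5.77, against 10.36, 9.56 and 10.58 (-4.4 ± 0.26, adjusted p = 1.88e-09), and Igfbp4 differed by -3.13. The regulatory subunit Pik3r1 read 9.51, 8.62 and 8.96, against 10.57, 10.51 and 10.86 (-1.62 ± 0.25, adjusted p = 0.000206), and Pik3r3 by -1.94 ± 0.35, though it stood at 0.64 against basal GFP-negative cells. Igf1r overlapped, at 4.68, 4.96 and 5.28, against 5.06, 5.37 and 4.97, and was not called (-0.16, adjusted p = 0.891). Igf1r differed by -2.05 against basal GFP-negative cells and was called there (adjusted p = 0.000173; range 0.000173 to 0.992).

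In the TGF-beta and BMP pathway 4 of 33 genes were higher and 5 lower. The activin inhibitor Fst read 6.19, 5.86 and 5.15 in luminal arrays, against 10.24, 10.33 and 10.06 in basal arrays (-4.48 ± 0.74, adjusted p = 0.000478), and the co-receptor Tgfbr3 (-4.31) and Smad1 (-1.72) were lower as well. Id1, a target of BMP signals, was higher (1.05 ± 0.20, adjusted p = 0.00175). Axon guidance genes, which also shape cell contacts in epithelia, were lower in 19 of 42 and higher in 2, with a median of -0.60: Sema6d (-3.72), Sema3c (-3.68), Slit3 (-2.47) and Plxna2 (-2.32) had the smallest p. Plxna2 stood at 0.01 against basal GFP-negative cells. Among 16 YAP and TEAD genes Ccn2 and the receptor Axl (-2.33) were 2 of the 4 lower ones, and 2 were higher.

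Inflammatory genes moved in both directions. Of 31 chemokines and cytokines 7 were higher and 7 lower. Csf3 read 10.04, 10.87 and 10.75 in luminal arrays, against 5.57, 7.68 and 4.74 in basal arrays (4.56 ± 0.60, adjusted p = 4.16e-05), and Tnf read 9.20, 9.51 and 9.59, against 6.16, 4.87 and 4.41. Cxcl12, the ligand of CXCR4, read 5.68, 4.96 and 5.56, against 9.63, 9.96 and 9.49 (-4.30 ± 0.25, adjusted p = 1.31e-09), and Cxcl14 differed by -3.48. Tnf and Csf3 were high in all 3 luminal arrays and Cxcl12 in all 3 basal arrays. Of 20 acute-phase and antimicrobial genes 5 were higher and 0 lower, Hp, Ltf and the lipopolysaccharide-binding protein Lbp (2.96) among them, with a median of 0.80. Of 14 complement genes 3 were higher, Cd55, C4b (2.34 ± 0.54, adjusted p = 0.00843) and Cfb (1.83, adjusted p = 0.00656). C4b was not called against basal GFP-negative cells or in a fit of the mutant arrays alone, with adjusted p from 0.000589 to 0.628, nor was Cfb in that fit or with the 6 arrays alone (adjusted p 0.00148 to 0.126). Of 18 interferon-stimulated genes 4 were higher (22.2%, against 3.62% of all genes) and 1 lower (5.56%, against 4.24%). Among the higher were the RNA sensor Ifih1 (2.07 ± 0.35), Ifit1 (1.36) and Rsad2 (1.18 ± 0.19). Ifih1 and Rsad2 were dim in basal cells.

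Mki67, a proliferation marker, read 6.69, 5.91 and 7.20 in luminal arrays, against 6.57, 5.82 and 7.08 in basal arrays (0.11 ± 0.61, adjusted p = 0.967). Of 30 cell cycle genes 1 was called, Ccne1 (-1.28, adjusted p = 0.0471), and 10 of 16 settings ended that call (adjusted p 0.00449 to 0.769). In the list of D-type cyclins, CDK inhibitors and Rb1, of 9 genes 1 was higher and 2 lower. The tumour suppressor Rb1 was higher, at 10.44, 9.61 and 9.85, against 7.56, 6.85 and 6.09 (3.13 ± 0.46, adjusted p = 0.000131), and Ccnd2, a D-type cyclin, lower (-2.41). Of 17 glycolytic genes 2 were higher, Aldoc (3.38) and Pfkfb3 (2.51), and 1 of 20 sterol synthesis genes, Msmo1 (1.67, adjusted p = 0.0378), which 6 of 16 settings did not call (adjusted p 0.000144 to 0.156). The shares of 3.33% lower in the cell cycle list and 5.0% higher in the sterol list were near those of all genes, 4.24% and 3.62%. None of 28 respiratory chain genes and none of 26 genes of protein folding and secretion in the endoplasmic reticulum was called by limma, and 1 and 5 of them had an unadjusted p under 0.05. Of 16 genes of the BCL2 family 4 were higher and 0 lower, among them the survival factor Bcl2l1 (1.55, adjusted p = 0.00363), which was not called against basal GFP-negative cells (adjusted p = 0.277, the highest of 16 settings).

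The layers were then compared in control mice, and the mutant and control differences were set against each other in the same fit. In control cells 1056 genes (5.30%) were higher and 938 (4.70%) lower in luminal cells. The same genes were called higher in mutant and control cells in 370 cases, 51.2% of the mutant and 35% of the control list, and lower in 412 cases, 48.8% and 43.9%. Across genes the 2 sets of differences correlated at r = 0.69, which describes these arrays, since genes are not independent replicates. The difference of differences was called positive for 76 genes (0.381% of those tested) and negative for 129 (0.647%), 1.03% together. Mutant luminal cells are GFP-positive and control luminal cells GFP-negative, so genotype and GFP state cannot be told apart in this test. In basal cells GFP marks Lgr5 in control mice and Lgr5, the transgene or both in mutant mice, so the gates differ as well.

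Of the 76 positive genes 32 were called higher in mutant cells and not in control cells, 24 were called lower in control cells and not in mutant cells, 19 were lower in both and 3 higher in both. Of the 129 negative genes 79 were lower in mutant cells and not in control cells, 36 higher in control cells and not in mutant cells, 10 lower in both and 7 higher in both. The 5 genes with opposite calls stand in 2 of these counts. C4b and Zbtb7b were higher in mutant luminal cells and lower in control ones, and Dcn, Piezo2 and Samd5 the other way. Piezo2 and Samd5 are named after their values were seen.

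**Figure D4:**
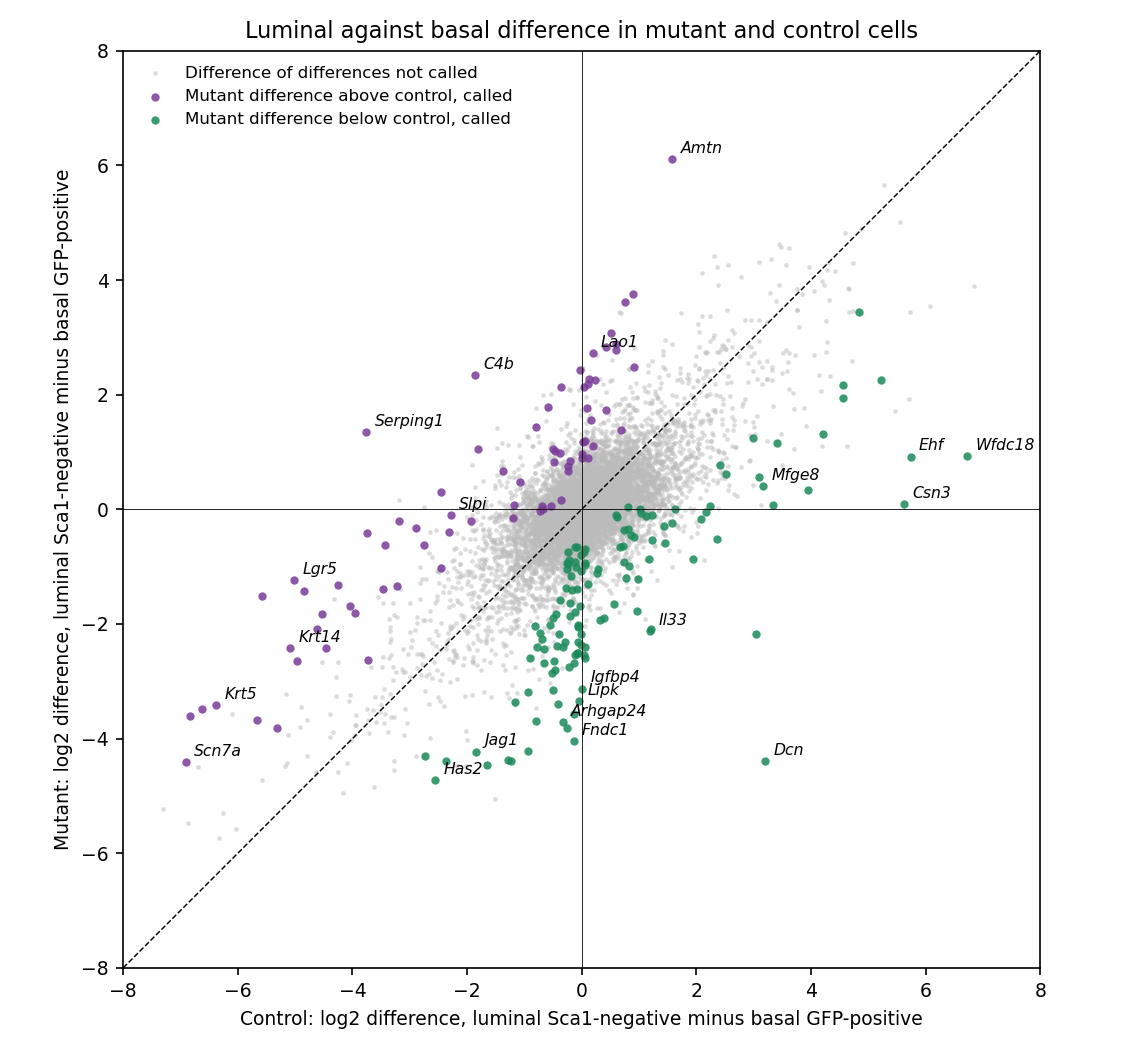
Each point is 1 gene, with the luminal minus basal GFP-positive log2 difference of control cells on the x axis and of mutant cells on the y axis; coloured points are the 76 and 129 genes whose differences differed, and the dashed line marks equal differences. Ehf (5.74 in control, 0.92 in mutant) and Csn3 (5.63, 0.09) lie far below the line, and Amtn (1.58, 6.11) far above it.

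Ehf and Csn3, high in luminal cells, differed strongly between the layers of control mice and little between those of mutant mice. Ehf stood at 10.91 ± 0.17 in mutant luminal cells and 9.99 ± 0.23 in mutant basal cells, and at 11.03 ± 0.11 in control luminal cells and 5.29 ± 0.42 in control basal cells (SD, n = 3 each). The difference of differences was -4.82 ± 0.42 (adjusted p = 3.42e-06). Csn3 stood at 11.07 ± 0.07 and 10.98 ± 0.04 in mutant luminal and basal cells, and at 10.97 ± 0.14 and 5.35 ± 1.57 in control luminal and basal cells (-5.53 ± 0.72, adjusted p = 0.00034). In both genes the luminal levels of the genotypes were close, and the basal levels were far apart. Tspan1, a tetraspanin, differed in the luminal layer instead, at 4.70 ± 0.08 in mutant luminal cells and 4.08 ± 0.08 in mutant basal cells, against 6.69 ± 0.24 and 4.18 ± 0.04 in control cells (-1.89 ± 0.18, adjusted p = 1.1e-05). Csn2 (12.51 and 11.05 in mutant, 9.07 and 5.16 in control) and Elf5 (9.13 and 7.36, 8.01 and 4.14) had differences of differences of -2.46 and -2.10 that were not called.

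Fndc1, Lipk and Arhgap24 were high in mutant basal GFP-positive cells and near or under the dim level in the other groups compared. Fndc1, a fibronectin-domain protein, stood at 4.57 ± 0.15 in mutant luminal cells and 8.62 ± 0.65 in mutant basal cells, and at 4.38 ± 0.12 and 4.52 ± 0.07 in control luminal and basal cells (-3.90 ± 0.27, adjusted p = 2.7e-07). Lipk, a lipase, stood at 3.99 and 7.34 in mutant cells and at 3.85 and 3.90 in control cells (-3.30 ± 0.17, adjusted p = 3.26e-09). Arhgap24, a GTPase-activating protein, stood at 4.44 and 8.15, against 3.97 and 4.29 (-3.39 ± 0.29, adjusted p = 2.62e-06). In the GFP-negative basal fraction of mutant glands Fndc1 averaged 4.37, Lipk 3.83 and Arhgap24 4.46. The transcription factor Dach1 (-2.59), the endothelin receptor Ednrb (-2.52), the lipoxygenase Alox12e (-2.65), Hpse2 (-1.94), Lratd1 (-2.27), Plxna2 (-2.25) and Dsg3 (-1.95) had their highest mean in the same cells among the 6 groups of the plot of group means.

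Several basal genes were lower in luminal cells of both genotypes, by less in mutant cells. Krt5 differed by -3.42 in mutant and by -6.38 in control cells (difference of differences 2.96 ± 0.61, adjusted p = 0.0214), with 8.5 ± 0.52 in mutant luminal and 5.21 ± 0.27 in control luminal cells and close basal levels of 11.92 and 11.60. This call ended under 4 of 20 settings (adjusted p 0.0032 to 0.059). Krt14 (2.67 ± 0.59, adjusted p = 0.0323), Sparc (3.23), Tagln (1.51) and Vim (2.06) had the same direction, and each lost its call under 12 to 14 of 20 settings, with adjusted p up to 0.115 for Krt14 and 0.708 for Tagln. The mean of the basal markers was higher in mutant than in control luminal cells (6.79 ± 0.36 and 5.24 ± 0.11). Its part in these values was not tested. Cxcl14 stood at 7.53 ± 0.29 in mutant luminal and 11.02 ± 0.14 in mutant basal cells, and at 5.25 ± 0.13 and 11.88 ± 0.08 in control cells (3.14 ± 0.30, adjusted p = 9.87e-06).

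Further genes had a larger or a turned difference in mutant cells. Amtn was higher in luminal cells by 6.11 in mutant and 1.58 in control mice (4.53 ± 0.43, adjusted p = 9.87e-06), at 10.28 ± 0.28 in mutant and 5.47 ± 0.67 in control luminal cells. Wfdc3 (2.41 ± 0.35), Fyb2 (2.18 ± 0.30), Zbtb7b (2.24 ± 0.29) and Prkaa2, the AMP-activated kinase subunit (2.09 ± 0.20), were also highest in mutant luminal cells among the 6 groups. Those groups leave out the Sca1-positive luminal cells, in which Amtn averaged 6.7 in mutant and 3.75 in control mice. Dcn stood at 6.72 ± 0.51 in mutant luminal and 11.11 ± 0.23 in mutant basal cells, and at 10 ± 0.24 and 6.80 ± 0.12 in control cells, so its difference turned round (-7.59 ± 0.97, adjusted p = 0.00031). Lgr5 stood at 5.06 ± 0.27 and 6.30 ± 0.90 in mutant cells and at 4.45 ± 0.17 and 9.47 ± 0.46 in control cells (3.77 ± 0.56, adjusted p = 0.0013). GFP can mark the Lgr5 locus itself, so the gate and the Lgr5 level of control basal cells go together. Jag1 (-2.39 ± 0.34), Has2 (-2.17 ± 0.25) and Igfbp2 (-2.03 ± 0.37) differed more in mutant than in control cells, and Scn7a (2.50 ± 0.29) and Col14a1 (2.0 ± 0.17) less.

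The choice of basal fraction decided much of this last comparison. With basal GFP-negative cells of both genotypes in place of the GFP-positive ones, the difference of differences was called positive for 16 genes and negative for 4. Of the 44 named genes 10 kept their call and 34 lost it or changed sign. Amtn (4.67), Prkaa2 (2.0), Cxcl14 (2.34), Il17b (2.77), Krt5 (3.43) and Tspan1 (-1.85) were among those that kept it. Ehf stood at -1.47 (adjusted p = 0.318), Csn3 at -0.78 (0.946), Lgr5 at 1.34 (0.691) and Dcn at -2.95 (0.465). Fndc1 (0.23), Lipk (0.22) and Arhgap24 (1.0) changed sign. Ehf, Csn3, Lgr5 and Dcn were called under the other 19 settings each, with adjusted p from 1.37e-06. Single arrays moved the counts as well. Without control basal replicate 2 there were 178 positive and 224 negative genes, without mutant basal replicate 2 there were 44 positive, and without mutant luminal replicate 2 there were 79 negative.

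**Figure D5:**
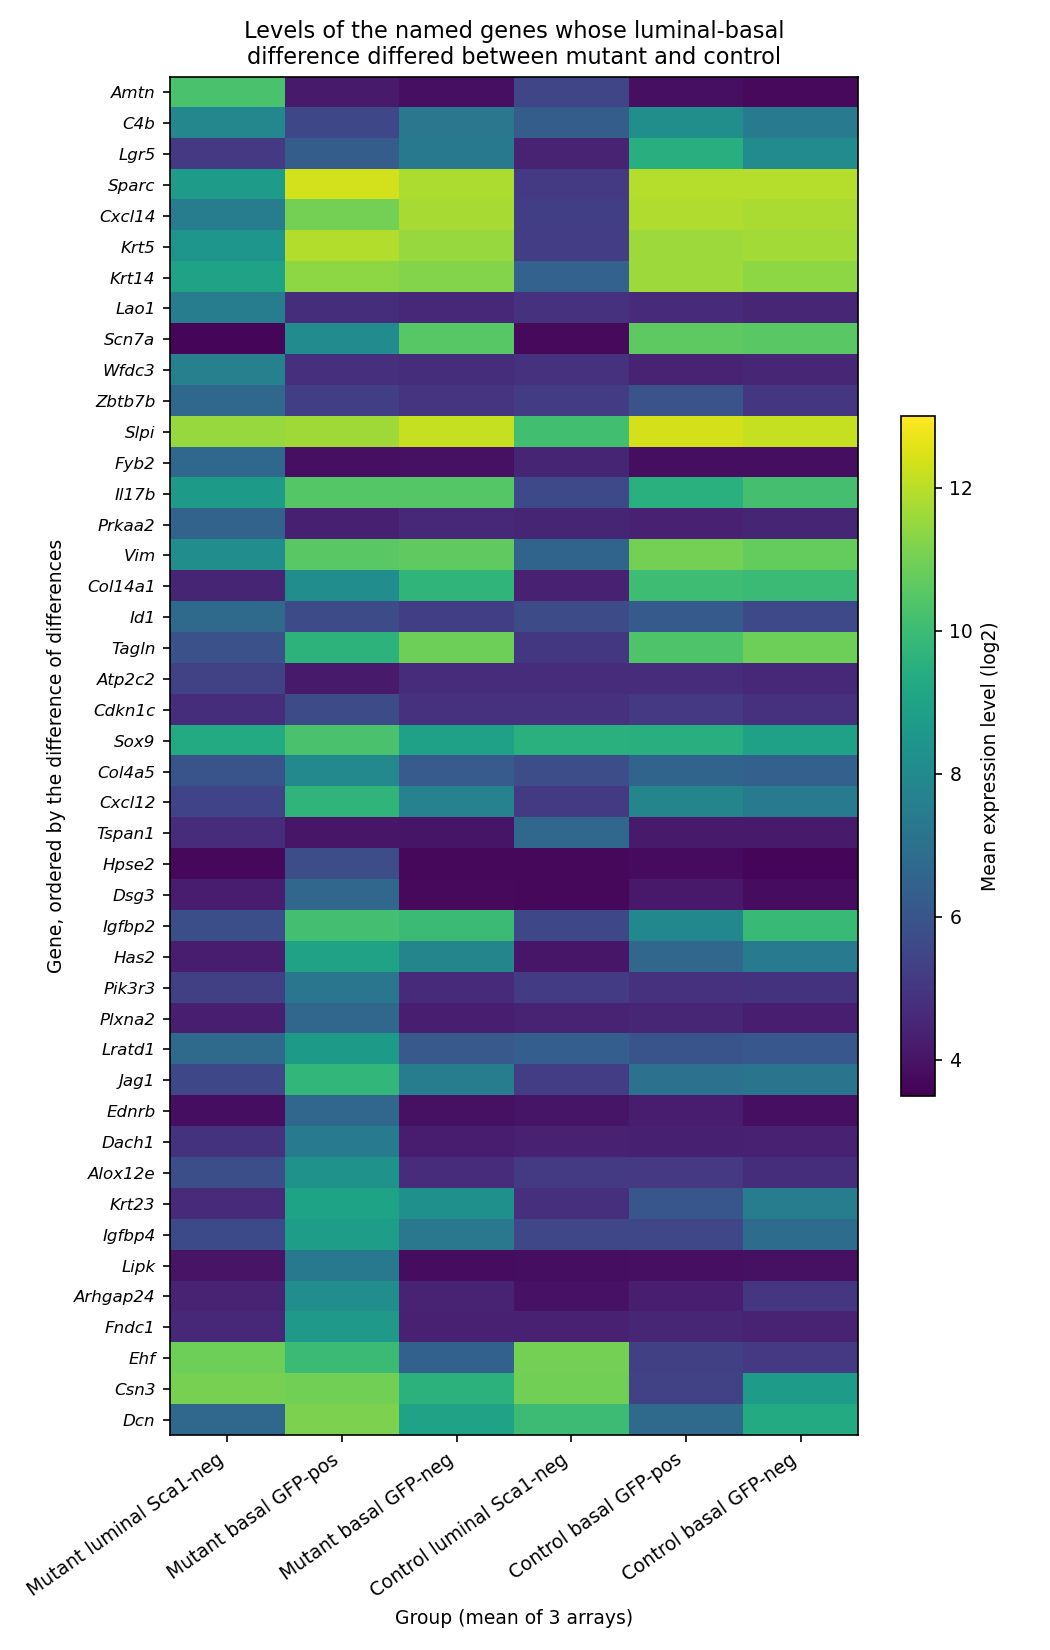
Mean log2 levels of 3 arrays per group (colour scale, 3.5 to 13) for the 44 named genes with a called difference of differences, from the most positive (Amtn, 4.53) to the most negative (Dcn, -7.59), in 6 groups. Fndc1, Arhgap24 and Lipk are bright in mutant basal GFP-positive cells (8.62, 8.15 and 7.34) and at 4.99 or lower in the other groups shown.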

How the data were processed

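Expression was measured on 24 arrays of sorted mammary cells in 8 groups of 3. Each deposited column holds the log2 levels of 1 array per probe set. The submitters' processing notes name affy, with no role or version, and the background correction, normalization and summarization are not given in the sources used here. Values ran from 2.586 to 13.54. Of 34760 probe sets 21640 had 1 gene symbol, 1321 several and 11799 none. Of genes with several probe sets (954 of 19937) the one with the highest mean over the 24 arrays was kept.

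Group means were fitted to all 24 arrays with limma 3.58.1 in R 4.3.3 (16 residual degrees of freedom), with Benjamini-Hochberg adjustment over all genes, two-sided, at 0.05. The contrasts were mutant luminal minus basal, and its difference from the control contrast. The code was tested on simulated data. Named genes were up to 12 each way by size and up to 4 called members per gene list by smallest p. Also named were up to 10 each way for the difference of differences, a fixed set of lineage genes, and uncalled list members given as values. The genes named by size were called genes without overlap between the groups. Predicted genes, clone names, olfactory, vomeronasal and taste receptors and small RNAs were left out there and for the difference of differences. The members and the 50 gene lists were chosen with earlier results of these data known. Promoter windows were the 250 bases before the start in RefSeq's GRCm38.p6 table. The number of arrays limits the precision. Alternatives were array weights, basal GFP-negative arrays, the compared groups alone, mutant arrays alone, dim genes left out, probe sets averaged, quantile normalization, a variance trend, a replicate block, the control basal GFP-positive arrays left out, and each array left out.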

Additional observations from a re-analysis of the deposited data

Results flagged for a closer look

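The luminal minus basal difference differed between mutant and control cells, by limma's test of the difference of differences, for 44 named genes. The values below are that difference on the log2 scale, mutant minus control, with 3 arrays in each of the 4 groups. Positive ones were Amtn at 4.53, C4b at 4.22, Lgr5 at 3.77, Sparc at 3.23, Cxcl14 at 3.14, Krt5 at 2.96, Krt14 at 2.67, Lao1 at 2.54, Scn7a at 2.50, Wfdc3 at 2.41, Zbtb7b at 2.24, Slpi at 2.19, Fyb2 at 2.18, Il17b at 2.14, Prkaa2 at 2.09, Vim at 2.06, Col14a1 at 2.00, Id1 at 1.56, Tagln at 1.51 and Atp2c2 at 1.15.

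Negative ones were Dcn at -7.59, Csn3 at -5.53, Ehf at -4.82, Fndc1 at -3.90, Arhgap24 at -3.39, Lipk at -3.30, Igfbp4 at -3.14, Krt23 at -3.08, Alox12e at -2.65, Dach1 at -2.59, Ednrb at -2.52, Jag1 at -2.39, Lratd1 at -2.27, Plxna2 at -2.25, Pik3r3 at -2.24, Has2 at -2.17, Igfbp2 at -2.03, Dsg3 at -1.95, Hpse2 at -1.94, Tspan1 at -1.89, Cxcl12 at -1.56, Col4a5 at -1.22, Sox9 at -1.04 and Cdkn1c at -0.67. Genotype and GFP state of the luminal cells go together in these values.

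Outside the gene tests, 85 of the 13120 probe sets that name no gene or more than 1 were called between mutant luminal and basal cells, 54 higher and 31 lower, and none of them is named here.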

How the results depend on the processing

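Of 172 named called genes 119 were called in the same direction under all 16 settings. The setting with basal GFP-negative arrays is not a processing choice, since it puts another cell population in place of the basal GFP-positive cells. Layer and GFP state differ together there, so a call lost under it belongs to a different comparison. Alox12e, Dach1 and Lratd1 were also called under all, but higher against basal GFP-negative arrays (adjusted p = 0.000204, 0.000241 and 0.0128). With basal GFP-negative arrays 1105 genes were higher. Without 1 array 459 to 573 were higher (459 without mutant basal replicate 3) and 657 to 718 lower. For the difference of differences, positive counts were 44 to 178 and negative ones 79 to 224 without 1 array, and 16 and 4 with basal GFP-negative arrays. Of its 44 named genes 9 were called under all 20 settings and 31 under all settings other than that one. Same replicate numbers are not stated to mark a shared sorting. Every mutant luminal array correlated best with its own number, at 0.04 to 0.07. In control cells luminal replicate 2 did so too (0.05), while replicate 1 stood at 0.06 with both its own number and basal replicate 3. Control luminal replicate 3 stood at -0.03 with its own number and at 0.06 with basal replicate 2. These values were too low to treat the numbers as pairs. With the replicate block 725 and 824 genes were called, and 61 and 128 for the difference of differences. The causes of these changes were not tested.

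Against basal GFP-negative arrays these differences changed sign: Alox12e 1.08, Dach1 0.62, Dsg3 0.50, Fndc1 0.20, Gata3 0.10, Hpse2 0.01, Lipk 0.16, Lratd1 0.63, Mki67 -0.24, Notch1 1.72, Nrg1 0.65, Pgr -0.44, Pik3ca 0.48, Pik3r3 0.64, Plxna2 0.01 and Sox9 0.37. So did these differences of differences: Alox12e 0.72, Arhgap24 1.0, Col4a5 0.44, Dach1 0.61, Dsg3 0.60, Fndc1 0.23, Igfbp2 0.16, Jag1 0.01, Lipk 0.22, Lratd1 0.35, Pik3r3 0.38 and Scn7a -0.03. Over the fits without 1 array the uncalled genes that changed sign ranged from -0.06 to 0.19 (Egfr), -0.22 to 0.46 (Mki67), -0.58 to 0.57 (Pgr), -0.27 to 0.01 (Pik3ca) and -0.28 to 0.16 (Slpi). Dim levels limit the sizes of low genes.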
